A study of Mus musculus with 6 samples.

Results

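The mitochondrial ribosomal protein genes of the mouse were followed across the left ventricle, the hippocampus and the prefrontal cortex of CHF mice and sham-operated mice. They were taken as every gene in the deposited tables whose symbol begins with Mrpl or Mrps and a number and that has a listed length, which gave 76 genes of 35485 features. A further 4 rows with such a name are pseudogenes without a listed length and were left out. By name 47 genes belong to the large subunit and 29 to the small subunit. By their known place in the ribosome 49 belong to the large and 26 to the small subunit, because Mrps30 and Mrps18a sit in the large one. Mrps36 belongs to neither, since its protein is a part of the oxoglutarate dehydrogenase complex. The rule reads only the symbol and the listed length of a row.

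Mitochondria translate the few respiratory chain subunits encoded in their own DNA with ribosomes of their own. The RNA of these ribosomes is made in the mitochondrion, whereas all their proteins are encoded in the nucleus, made by cytosolic ribosomes and imported. Some of the proteins descend from bacterial ribosomal proteins and others are found only in mitochondria. Heart muscle depends heavily on respiration, and inherited defects of several of these proteins cause cardiomyopathy in people.

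The study set male C57BL/6 mice (C57BL/6N in its methods) with ischemic heart failure, caused by permanent ligation of the left anterior descending coronary artery, against mice with thoracotomy and no ligation. The mice were 6 to 9 weeks old when obtained, and tissue was taken 8 weeks after the operation. RNA of 3 CHF mice or of 6 sham-operated mice was pooled for each tissue, which gave 6 libraries with 1 library for each tissue and condition. The mice had also been housed and tested for behavior, so both groups share that history, and the pools hide the spread between mice. Whether the tissues of a condition came from the same mice is not stated in the sources used here. No test between CHF and sham mice was therefore possible, no SD can be given, and all comparisons below describe these pools.

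The libraries held 15.7 to 25.9 M unique gene reads, those that map to a single place in the genome and to a single gene. In the left ventricle the 10 largest features held 17.6% (CHF) and 28.0% (sham) of all unique reads, whereas in the brain libraries they held 4.12 to 4.95%. Heart muscle markers summed to 3846 RPKM (CHF) and 5230 RPKM (sham) in the left ventricle and to 1.13 to 1.89 RPKM in the brain, and neuronal markers to 323 to 345 RPKM in the brain and 1.42 to 1.81 RPKM in the left ventricle. Prox1, C1ql2 and Fibcd1, which mark the hippocampus, summed to 50.2 to 54.8 RPKM there and to 0.87 to 0.95 RPKM in the prefrontal cortex. The neocortical markers Rorb, Fezf2 and Tbr1 summed to 39.5 to 41.9 RPKM in the prefrontal cortex and to 22.9 to 23.4 RPKM in the hippocampus. RPKM scales the reads of a gene to its listed length in kilobases and to the reads of the library. Pln, Tcf21 and P2ry12 among the markers had 0 unique reads in all 6 libraries.

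The promoters of 67 of the 76 genes were found in the RefSeq table of 300-base windows on GRCm38.p6, from 250 bases before to 50 bases after the start. Of these, 12 (17.9%) held the motif recognised by NRF1, as in the capitals of the Mrpl39 stretch printed here, 23 (34.3%) held CCGGAAG, the core recognised by ETS factors such as GABP, and 8 (11.9%) held AAGATGGCG, which YY1 recognises. NRF1 and GABP are known regulators of nuclear genes for mitochondrial proteins. Both strands were searched. The share over all 27025 promoters was 4.78% for NRF1, 9.12% for ETS and 1.49% for YY1. Over the 7212 promoters of genes measured in the left ventricle it was 11.3%, 19.2% and 3.63%. At least 1 of the 3 motifs was present in 38 windows (56.7%), against 30.7% of the promoters of measured genes. A match describes letters and is no evidence that a factor binds there. The stretches of 250 bases before the start are printed for the measured genes with the lowest and the highest left ventricular ratio of CHF to sham among those that hold each motif there, with the NRF1, ETS and YY1 letters in capitals:
Mrpl39: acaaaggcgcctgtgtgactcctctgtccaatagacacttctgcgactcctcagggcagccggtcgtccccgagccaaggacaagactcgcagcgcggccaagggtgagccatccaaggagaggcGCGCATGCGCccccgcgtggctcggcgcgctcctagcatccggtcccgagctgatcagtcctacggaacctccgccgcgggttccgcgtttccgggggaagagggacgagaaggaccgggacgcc
Mrpl17: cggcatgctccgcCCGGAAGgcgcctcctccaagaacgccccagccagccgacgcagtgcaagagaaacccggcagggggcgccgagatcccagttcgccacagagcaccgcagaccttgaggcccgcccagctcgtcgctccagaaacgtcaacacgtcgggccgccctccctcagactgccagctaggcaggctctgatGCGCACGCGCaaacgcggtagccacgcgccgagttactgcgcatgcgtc
Mrpl3: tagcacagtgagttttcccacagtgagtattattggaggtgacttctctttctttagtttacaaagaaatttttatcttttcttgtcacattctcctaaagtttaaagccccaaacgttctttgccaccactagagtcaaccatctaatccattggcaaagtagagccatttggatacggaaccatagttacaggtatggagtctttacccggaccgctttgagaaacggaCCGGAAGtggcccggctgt
Mrps18c: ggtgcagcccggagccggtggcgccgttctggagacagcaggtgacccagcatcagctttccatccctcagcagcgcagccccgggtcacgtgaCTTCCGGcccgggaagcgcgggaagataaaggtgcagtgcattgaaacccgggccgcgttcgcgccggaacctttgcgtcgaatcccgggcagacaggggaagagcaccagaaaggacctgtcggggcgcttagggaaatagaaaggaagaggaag
Mrpl36: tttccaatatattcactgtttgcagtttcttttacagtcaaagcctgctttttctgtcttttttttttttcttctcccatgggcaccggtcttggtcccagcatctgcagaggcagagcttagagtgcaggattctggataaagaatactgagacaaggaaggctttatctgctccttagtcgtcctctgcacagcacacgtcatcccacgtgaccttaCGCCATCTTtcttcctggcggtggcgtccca
Mrps11: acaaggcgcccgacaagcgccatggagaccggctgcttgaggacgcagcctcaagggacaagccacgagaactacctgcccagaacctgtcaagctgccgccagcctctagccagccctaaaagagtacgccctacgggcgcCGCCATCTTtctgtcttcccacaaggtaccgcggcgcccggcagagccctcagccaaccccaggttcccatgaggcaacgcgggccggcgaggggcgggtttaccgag

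The first pair was chosen for NRF1, the second for ETS and the third for YY1. The Mrpl39 stretch is chr16:84735245-84735494 on the minus strand, and its NRF1 letters begin 125 bases before the start. The Mrpl17 stretch is chr7:105811088-105811337 on the minus strand, with NRF1 letters 49 bases and an ETS core 237 bases before the start. The Mrpl3 stretch is chr9:105053018-105053267 on the plus strand, with the ETS core 19 bases before the start. The Mrps18c stretch is chr5:100798509-100798758 on the plus strand, with the core read from the opposite strand 156 bases before the start. The Mrpl36 stretch is chr13:73330759-73331008 and the Mrps11 stretch chr7:78782881-78783130, both on the plus strand, and their YY1 letters begin 31 and 108 bases before the start. In both the letters stand on the opposite strand.

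**Figure D1:**
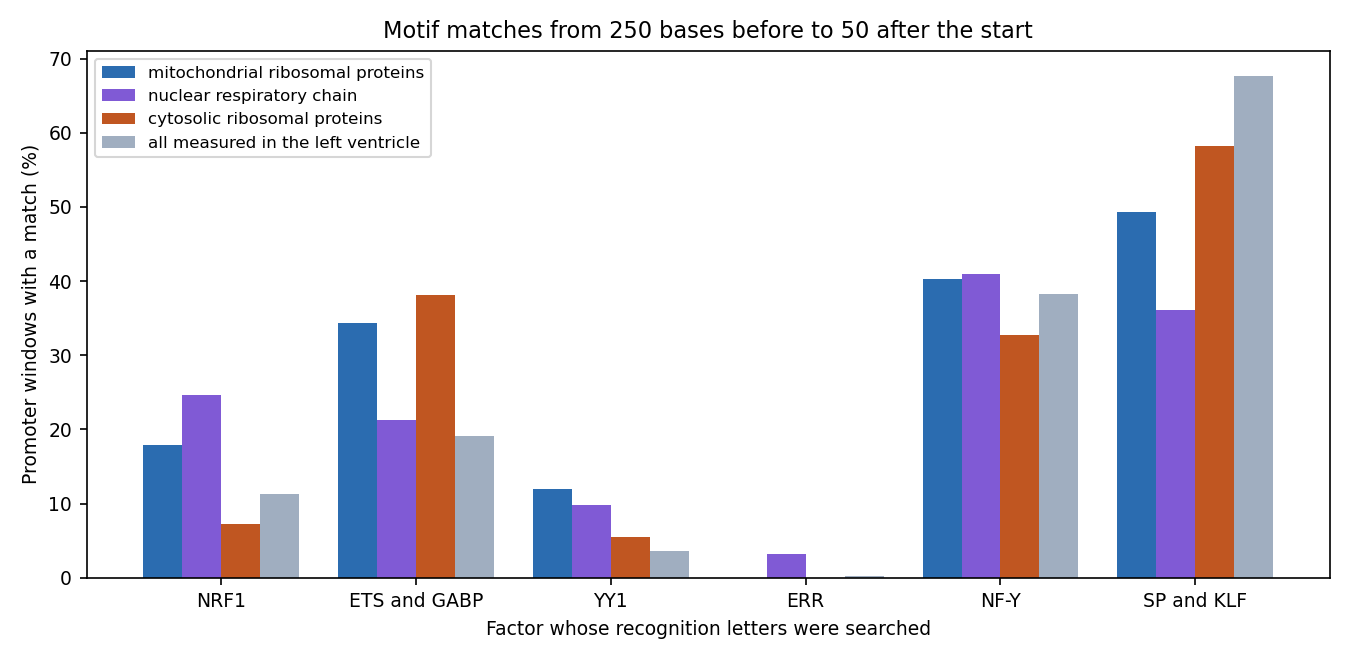
Share of promoter windows with a match (%, vertical axis) for each factor searched (horizontal axis), in 67 mitochondrial ribosomal protein genes, 61 nuclear respiratory chain genes, 55 cytosolic ribosomal protein genes and 7212 genes measured in the left ventricle. NRF1 letters were in 17.9% of the mitochondrial ribosomal protein windows and in 24.6% of the respiratory chain windows, against 11.3% of all measured.

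The 3 groups of ribosomal and respiratory genes differed in some of these letters. NRF1 letters were in 24.6% of the respiratory chain promoters and in 7.27% of the cytosolic ribosomal protein promoters. The ETS core was in 21.3% and 38.2% of them. YY1 letters were in 9.84% of the respiratory chain promoters and in 5.45% of the cytosolic ribosomal protein promoters. The ERR letters TCAAGGTCA were in 0 of the 67 windows and in 0.236% of the measured promoters. They were in 3.28% of the respiratory chain promoters and in 0% of the cytosolic ribosomal protein promoters. The NF-Y letters CCAAT were in 40.3% of the windows against 38.3% of the measured promoters. The SP and KLF letters GGGCGG were in 49.3% against 67.7%.

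In the left ventricle the mitochondrial ribosomal protein transcripts had by RPKM a median ratio of CHF to sham near 0, while the median of all measured features was above 0. Both medians depend on the scaling, and with some other scalings given below that of these genes lay farther below 0. A gene was measured where each of the pools gave it 100 or more unique reads. Of the 72 genes measured there, none reached the log2 fold-change of 0.9 in either direction that the study used to call a gene regulated. Of all 9771 measured features, 10.5% were higher and 1.54% lower by that rule. The median log2 ratio of CHF to sham was -0.08 for the mitochondrial ribosomal protein genes and 0.22 for all measured features, a distance of -0.31. The ratios ran from -0.62 (Mrps33) to 0.89 (Mrps6) with an SD across genes of 0.25, against 0.61 across all features.

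Counting error was described by 95% intervals (exact, Clopper-Pearson) on unique reads. A ratio below 0 was found for 48 of the 72 genes, against 28.8% of all features. The interval lay below 0 for 24 genes (17.5% of all features) and above 0 for 8 (56.3% of all features). Set against the median of all features, 52 genes had an interval below it (32.0% of all) and 1, Mrpl24, above it (34.6% of all). Scaling by TMM sets the median of all features to 0.01 and thus moves it by -0.22. With it the median of the mitochondrial ribosomal protein genes was -0.30. Then 65 of 72 genes were below 0, where 4813 of all 9771 features were. The intervals hold no spread between mice, and reads are not independent molecules.

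**Figure D2:**
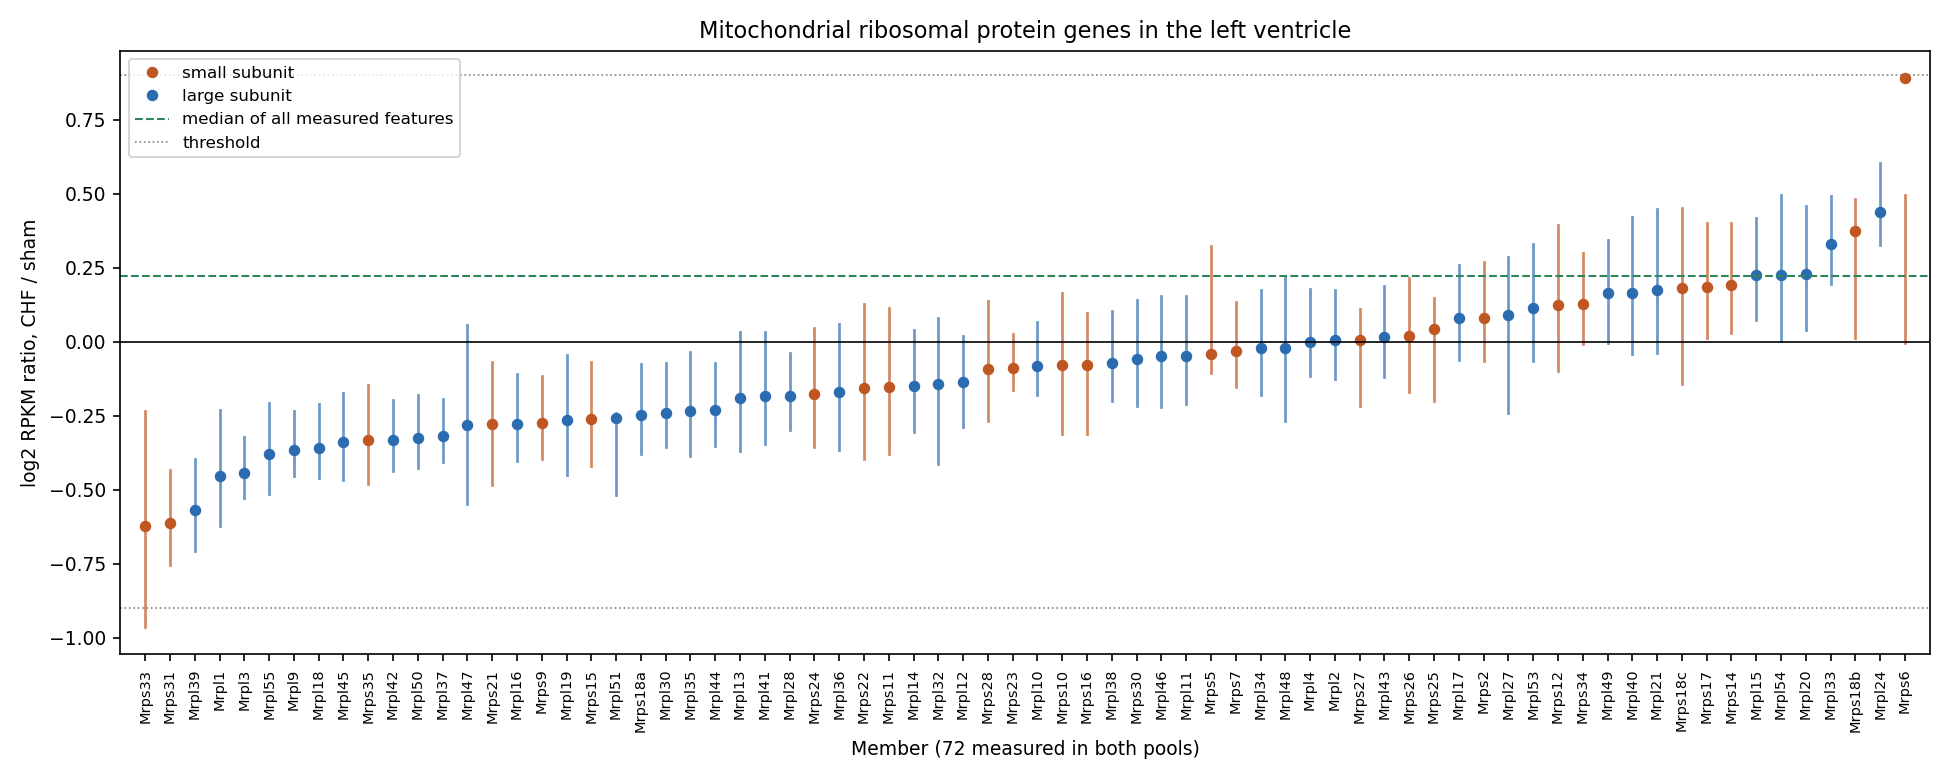
The log2 RPKM ratio of CHF to sham in the left ventricle (points, vertical axis) for the 72 measured genes in order of their ratio (horizontal axis), with the exact 95% interval of the ratio of unique reads (bars) and the subunit in color. All points lie between -0.62 and 0.89, inside the dotted thresholds at 0.9 and -0.9, and most lie under the dashed median of all features at 0.22; for Mrps6 the point lies outside its bar because RPKM also counts shared reads.

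The lowest ratios were found in both subunits. Mrps31, a mitochondria-specific protein of the small subunit, had 1.43 RPKM in CHF and 2.19 RPKM in sham mice (580 and 691 unique reads), a log2 ratio of -0.61 (interval -0.76 to -0.43). Mrps31 had 1.02 and 0.944 RPKM in the hippocampus and 1.00 and 0.976 RPKM in the prefrontal cortex. Its log2 ratios there were 0.10 and 0.04, and neither interval lay above 0. Mrps33, also a small subunit protein, had -0.62 with a wide interval of -0.96 to -0.23, since it rests on 118 and 141 reads. Its levels were 0.668 RPKM in CHF and 1.03 RPKM in sham left ventricle, 0.673 and 0.560 RPKM in the hippocampus and 0.613 and 0.530 RPKM in the prefrontal cortex, and sham left ventricle was thus the high library. Mrpl39, a mitochondria-specific protein of the large subunit, had 1.64 RPKM in CHF and 2.43 RPKM in sham mice, with a log2 ratio of -0.57 (-0.71 to -0.40). Its brain levels lay between 0.913 and 0.952 RPKM in all 4 libraries, below both heart libraries.

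Mrpl1, the protein of the L1 stalk through which spent tRNA leaves the ribosome, had 0.335 RPKM in CHF and 0.459 RPKM in sham left ventricle, a ratio of -0.45 (-0.62 to -0.23). In the brain it lay between 0.106 and 0.124 RPKM in all 4 libraries, again below both heart libraries. Mrpl55, the counterpart of the bacterial L31, had -0.38, and Mrpl9 had -0.36 with 1342 reads in CHF and 1345 in the smaller sham library. In the small subunit Mrps35 (-0.33), Mrps21 (-0.28), Mrps9 (-0.28) and Mrps15 (-0.26) followed. None of these reached the threshold.

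Mrpl3, a core protein of the large subunit and 1 of the genes tied to heart muscle disease in people, rests on more reads than the other low ones. It had 2.80 RPKM in CHF and 3.80 RPKM in sham left ventricle (1499 and 1588 unique reads), a log2 ratio of -0.44 (-0.53 to -0.32). In the hippocampus it had 2.67 and 2.30 RPKM (0.21, 0.11 to 0.31), and in the prefrontal cortex 2.26 and 2.42 RPKM (-0.10, -0.21 to 0.02). The heart and the hippocampus thus gave intervals on opposite sides of 0. Mrpl44, a protein with an RNase III fold whose loss also causes cardiomyopathy in people, had -0.23 (-0.35 to -0.07) in the left ventricle. Mrps22, another such gene, had -0.16 with an interval that spans 0 (-0.40 to 0.13).

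By unique reads the highest ratio was that of Mrpl24 (0.46), the counterpart of the bacterial protein L24 near the exit tunnel. It had 15.4 RPKM in CHF and 11.4 RPKM in sham left ventricle (1170 and 670 unique reads), a log2 ratio of 0.44 (0.33 to 0.60), and 84.0% of its reads were unique in the lowest library. It shares 833 bases with Rrnad1 on the opposite strand, which had 546 and 307 unique reads in the same pools, and their part in this ratio was not tested. In the hippocampus it had 9.58 and 8.48 RPKM (0.18, 0.03 to 0.32) and in the prefrontal cortex 9.89 and 9.11 RPKM (0.12, -0.01 to 0.29), so that the CHF pool was the higher one in each tissue. Mrpl33 had 0.33 (0.19 to 0.49), and Mrpl20, Mrpl54 and Mrpl15 each had 0.23. In the small subunit Mrps14 and Mrps17 each had 0.19. With TMM 7 of the 72 genes stayed above 0, namely Mrpl24 (0.23), Mrpl33 (0.11), Mrpl20, Mrpl54 and Mrps18b (each 0.02), and Mrpl15 and Mrps6 (each 0.01). Of all 9771 features 4813 were below 0 with TMM.

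Mrps6 stood nearest to the threshold, and its reads need care. Its RPKM was 0.726 in CHF and 0.392 in sham left ventricle, a log2 ratio of 0.89, but by unique reads alone (333 and 222) the ratio was 0.24 with an interval of -0.01 to 0.50. Slc5a3, a transporter gene, lies with 29138 bases inside the listed span of Mrps6 on the same strand, and only 38.5% of the reads of Mrps6 were unique in the lowest library. Reads of the 2 genes in this stretch cannot be told apart in RPKM. Mrpl52, a mitochondria-specific protein of the large subunit, lay just outside the rule with 3.75 RPKM in CHF and 1.98 RPKM in sham mice, a log2 ratio of 0.92 (0.58 to 1.29). It had 234 reads in CHF and 97 in sham mice and so missed the minimum of 100. Mrpl22, Mrpl23 and Mrps36 were also under the minimum in the left ventricle, with ratios of 0.36, -0.07 and 0.11.

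The 3 genes of the bacterial S18 family, which the mouse has in place of 1, were spread out. Mrps18b had 0.37 (0.25 by unique reads), Mrps18c had 0.18, and Mrps18a, which sits in the large subunit, had -0.25 (-0.38 to -0.07). Mrpl10, Mrpl11 and Mrpl12, which form the stalk that recruits translation factors, had -0.08, -0.05 and -0.14, and all 3 intervals spanned 0. Mrps12 of the decoding site had 0.12 (-0.10 to 0.39), and Mrps30, which sits in the large subunit, had -0.06. Of the proteins with other names, Mrp63 had 0.41 and Ict1, a hydrolase built into the large subunit that frees stalled chains, had 0.08.

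The large subunit had a median ratio of -0.15 over 46 genes and the small subunit of -0.06 over 26 genes. Both were below 0 also with TMM, DESeq2 size factors and read-based CPM. Genes with a bacterial counterpart had a median of -0.09 (46 genes) and mitochondria-specific genes of -0.08 (26 genes). Summed over the genes, the left ventricle had 2409 CPM of unique reads in CHF and 2605 CPM in sham mice, where CPM is counts per M library reads. The large subunit took 2.33 times the reads of the small subunit in CHF and 2.44 times in sham left ventricle, against 1.98 to 2.07 times in the 4 brain libraries.

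The other genes of mitochondrial translation lay near the ribosomal proteins in the left ventricle, and the respiratory chain and the cytosolic ribosome lay apart on either side. None of 11 measured translation factors was called, with a median of -0.17 from Gfm1, an elongation factor, at -0.42 to Mtfmt, the formyltransferase of the initiator tRNA, at 0.30. None of 19 aminoacyl-tRNA synthetase genes was called, with a median of -0.12 from Nars2 (-0.55) to Lars2 (0.30). Of 19 assembly factors none was called and the median was -0.11, from Tfb1m, a methyltransferase of the small ribosomal RNA, at -0.79 (126 and 174 reads) to Mterfd2 at 0.39, and with TMM 1 of them was called lower. The 7 mitoribosomal proteins under other names had a median of 0.00, from Ptcd3 (-0.41) to Mrp63. The 7 measured genes of mitochondrial DNA expression had a median of -0.23, with Lrpprc, which stabilises mitochondrial mRNA, lowest at -0.49.

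The 75 nuclear respiratory chain genes had a median of -0.38, 73 of them below 0 and none called, from Sdha (-0.68) to Ndufa11 (0.02). The 42 measured genes of cytosolic ribosomal proteins had a median of 0.76 with 12 called higher and none lower, from Rps2 (0.02) to Rps19 (1.54). A further 33 of the 75 listed with a length had too few unique reads. With TMM these medians were -0.58 and 0.50, and 3 of the cytosolic ribosomal protein genes were called higher. The mitochondrial import and chaperone genes had -0.19 over 13 genes, from Vdac3 (-0.51) to Tomm22 (0.33). Among 8 measured regulators, Ppargc1b (-0.66) and Ppargc1a (-0.59), the PGC-1 coactivators of mitochondrial genes, were lowest and Gabpb1 (0.57), a GABP subunit, was highest.

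Markers of other cells differed between the same libraries. The 10 macrophage markers summed to 206 RPKM in CHF and 53.2 RPKM in sham left ventricle with 7 of 8 measured called higher, and the 9 fibroblast and matrix markers to 257 and 30.0 RPKM with 8 of 8 called higher. The 10 heart muscle markers summed to 3846 and 5230 RPKM with 1 of 9 measured called lower, Myh6 (-0.99), and with TMM 4 of 9. The part of this shift in the ratios of the mitochondrial ribosomal protein genes was not tested, and fewer heart muscle cells and less RNA per cell cannot be told apart in such samples.

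**Figure D3:**
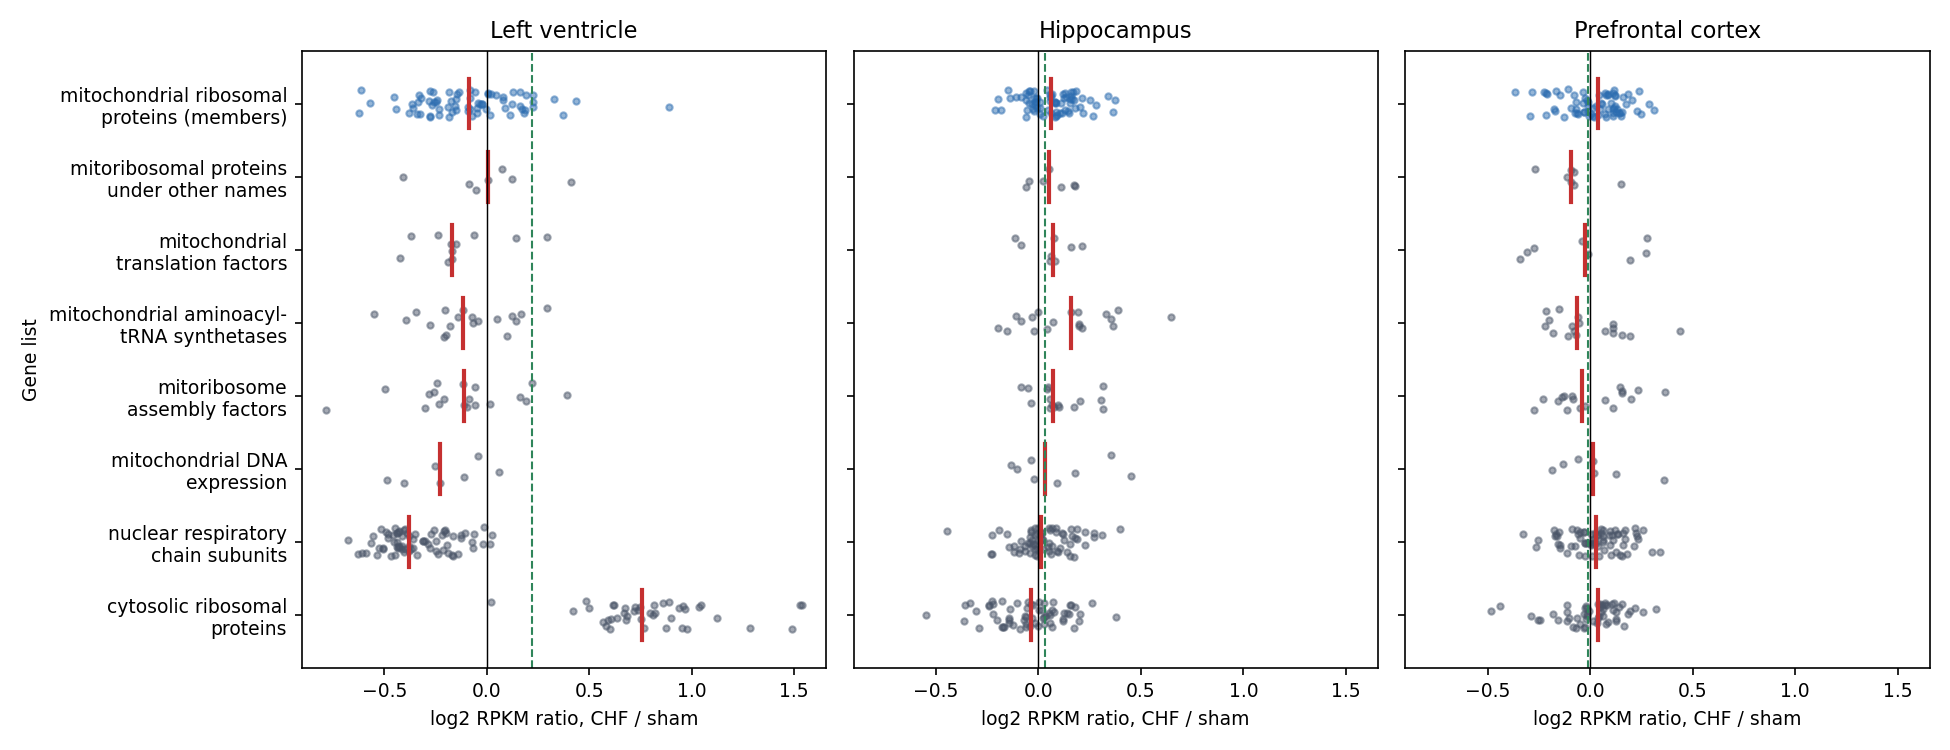
The log2 RPKM ratio of CHF to sham (horizontal axis) for each measured gene (points) of 8 gene lists (vertical axis) in 3 tissues, with the median of each list (red bar) and of all measured features (green dashed line). In the left ventricle the medians run from -0.38 for the respiratory chain and -0.08 for the mitochondrial ribosomal proteins to 0.76 for the cytosolic ribosomal proteins, and in both brain regions all medians lie between -0.10 and 0.16.

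In the hippocampus the mitochondrial ribosomal protein genes had ratios of CHF to sham close to 0. None of the 74 measured genes was called, where 0.0541% of all features were higher and 0.135% lower. Their median ratio was 0.06, against 0.03 for all features, and the range ran from -0.21 (Mrpl14) to 0.37 (Mrps5). The small subunit had a median of 0.11 with 20 of 26 genes above 0, where 58.9% of all features were, and the large subunit one of 0.06. The interval lay above 0 for 9 genes (22.5% of all features) and below 0 for 2 (13.3%).

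The highest values in the hippocampus were those of Mrps5, a protein at the mRNA entry of the small subunit, with 1.91 RPKM in CHF and 1.47 RPKM in sham mice (0.37, 0.19 to 0.51), and of Mrps28 (0.36, 0.05 to 0.68). In the large subunit Mrpl54 had 0.34 (0.11 to 0.57) and Mrpl23 had 0.25. The lowest were Mrpl14 and Mrpl46 (-0.20, -0.40 to -0.01) in the large subunit and Mrps12 (-0.06) and Mrps27 (-0.06) in the small one. Neighbouring ratios in this order do not differ beyond their intervals, which had a median half-width of 0.18.

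In the prefrontal cortex none of 72 measured genes was called, where 0.0093% of all features were higher and 0.0465% lower. The median was 0.04, against -0.01 for all features. The lowest ratio was that of Mrps24, with 3.69 RPKM in CHF and 4.77 RPKM in sham mice (277 and 432 reads), a log2 ratio of -0.37 (-0.59 to -0.15). In the hippocampus the same gene had 5.09 and 4.19 RPKM, with 0.28 (0.09 to 0.47). The lowest of the large subunit were Mrps30 (-0.29, -0.51 to -0.08) and Mrpl53 (-0.22, -0.43 to 0.00), and Mrps34 (-0.28, -0.42 to -0.14) was second lowest in the small subunit. By RPKM the highest were Mrps18b (0.31) and Mrps21 (0.25) in the small subunit and Mrpl17 (0.29, 0.12 to 0.47) and Mrpl48 (0.24) in the large. By unique reads Mrps18b had 0.23, Mrps21 0.07 and Mrpl48 0.16, and the highest gene was Mrpl51 (0.37). The interval lay above 0 for 6 genes (12.3% of all features) and below 0 for 8 (15.8%). Mrpl48 shares 411 bases with Rab6a on the opposite strand, a gene with 32.1 times its reads per length in the hippocampus of sham mice, and the strand setting of the counting is not given.

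More of these genes passed the threshold between left ventricle and brain than between CHF and sham mice, and the same held over all features. In sham mice 20 of 71 mitochondrial ribosomal protein genes were higher in the left ventricle than in the hippocampus by 0.9 or more and 2 were lower, against 26.0% and 30.1% of all features. Their median log2 ratio was 0.51, against -0.17 for all features. In CHF mice, whose libraries are separate, 14 of 75 were higher and 1 was lower (29.2% and 25.7% of all features), with a median of 0.34. Of the 20 and 14 genes 13 were shared, which is 65.0% of the first and 92.9% of the second. Over all features measured in both, 90.7% of those higher in sham mice and 78.5% of those higher in CHF mice were shared. In sham mice the share of genes called higher was near that of all features and in CHF mice it was lower. The share called lower was below that of all features in both.

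The gene with the largest distance was Mrpl42, a mitochondria-specific protein of the large subunit. It had 3.15 RPKM in sham and 2.51 RPKM in CHF left ventricle, but 0.386 and 0.430 RPKM in the hippocampus and 0.544 and 0.504 RPKM in the prefrontal cortex, in the same order. Its log2 ratio of left ventricle to hippocampus was 3.03 in sham and 2.54 in CHF mice. Both heart libraries thus lay far above all 4 brain libraries. Mrpl50, also mitochondria-specific, had 7.22 RPKM in sham and 5.77 RPKM in CHF left ventricle against 1.42 to 1.76 RPKM in the brain, with ratios of 2.20 and 2.02. Mrpl1 had 2.12 and 1.60. Mrps28, the counterpart of a part of the bacterial protein S1, was the highest of the small subunit with 1.90 and 1.45.

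At the other end were Mrpl20, Mrps12 and Mrps26. Mrpl20 had 3.54 RPKM in sham and 4.14 RPKM in CHF left ventricle, 7.24 and 7.14 RPKM in the hippocampus and 6.72 and 7.47 RPKM in the prefrontal cortex. Its ratio to the hippocampus was -1.03 in sham and -0.78 in CHF mice. Mrps12 had 6.45 and 7.03 RPKM in the left ventricle and 11.6 to 12.9 RPKM in the brain, with ratios of -0.91 and -0.72. Mrps26, a mitochondria-specific protein, had 14.3 and 14.5 RPKM in the left ventricle and 24.2 to 27.3 RPKM in the brain, with ratios of -0.84 and -0.90. For these 3 genes both heart libraries were below all brain libraries.

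**Figure D4:**
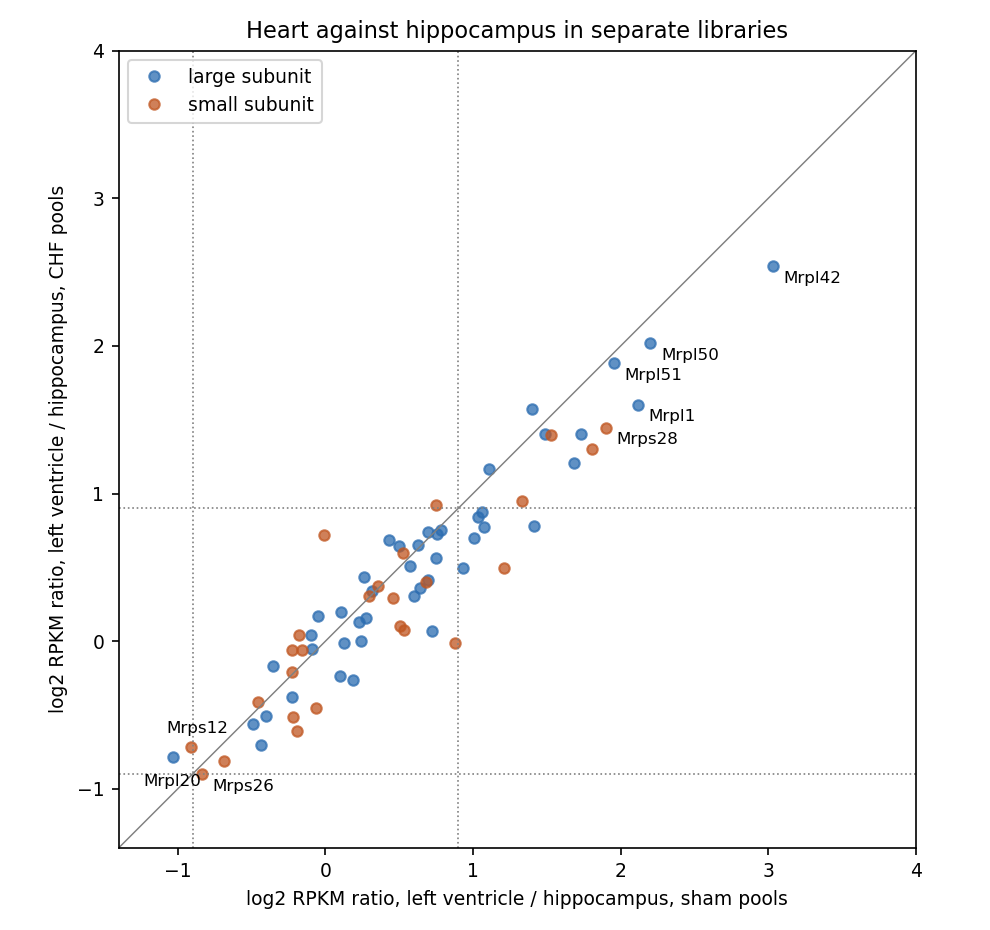
The log2 RPKM ratio of left ventricle to hippocampus in CHF pools (vertical axis) against that in sham pools (horizontal axis) for 71 genes (points, colored by subunit), with the line of equal ratios and dotted thresholds at 0.9 and -0.9. In sham pools the genes run from Mrpl20 at -1.03 to Mrpl42 at 3.03, and the CHF pools, which are separate libraries, give a Pearson's r of 0.94 with them across genes.

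Across the 71 genes measured in both, the ratio of left ventricle to hippocampus in sham mice and that in CHF mice had a Pearson's r of 0.94 and a Spearman's rho of 0.92, and over 8619 features r was 0.94. The points are genes and not independent replicates, and no library is shared between the axes. Against the prefrontal cortex, 21 of 70 genes were higher and 3 lower in sham mice (24.9% and 30.1% of all features) and 14 of 72 were higher and none lower in CHF mice (27.3% and 25.7%). With TMM the sham counts were 27 higher and 0 lower, where 2477 and 2216 of all 8719 features were. Against the hippocampus they were 25 higher and 0 lower with TMM, where 2525 and 2246 of all 8692 features were. Between the hippocampus and the prefrontal cortex, no gene of 73 in sham or of 72 in CHF mice was called (5.35% and 5.24% of all features).

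Over all 6 libraries 69 of the genes were measured. Of these, 43 had both left ventricular libraries above all 4 brain libraries and 14 had both below, against 37.2% and 43.5% of all features. The large subunit had 31 of 45 above and 7 below, and the small subunit 12 of 24 above and 7 below. The stalk was divided, with Mrpl10 (-0.49) and Mrpl11 (-0.40) lower in sham left ventricle than in hippocampus and Mrpl12 higher (1.03). Among the respiratory chain genes 71 of 72 were above, with a median ratio of left ventricle to hippocampus of 1.76 in sham mice and 66 of 72 called higher. The corresponding median of the mitochondrial ribosomal protein genes was 0.51, and the difference between the lists was not tested. The cytosolic ribosomal proteins had -0.25 in sham and 0.65 in CHF mice.

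**Figure D5:**
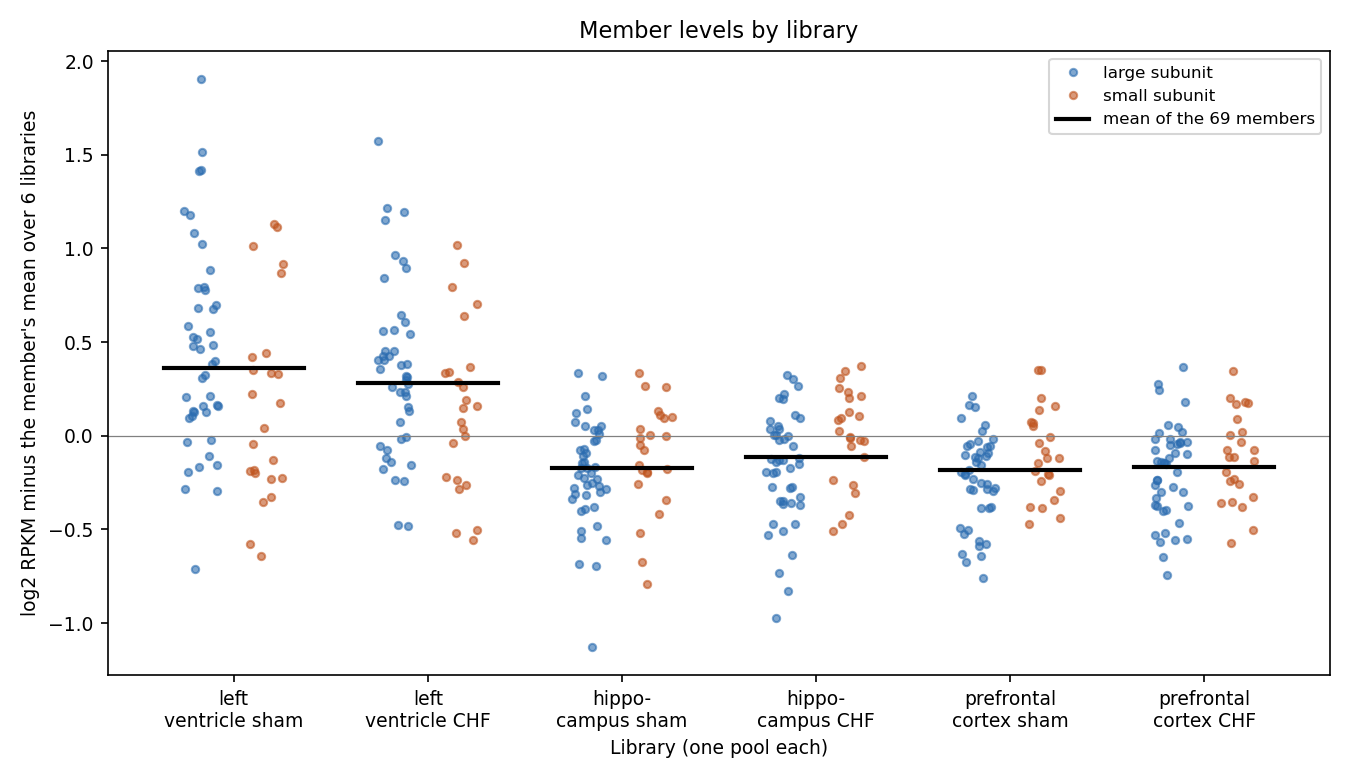
The log2 RPKM of each gene less its mean over the 6 libraries (vertical axis) for each library (horizontal axis), as points for the 45 large subunit and 24 small subunit genes, with the mean of the 69 genes as a black bar. The mean is 0.36 in sham and 0.28 in CHF left ventricle and between -0.19 and -0.11 in the 4 brain libraries.

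Levels differed between genes far more than between conditions. RPKM ran from 0.181 (Mrps28) to 45.2 (Mrpl51) in sham left ventricle, with Mrpl34 (32.4) and Mrpl53 (25.9) next in the large subunit and Mrps34 (30.4), Mrps26 (14.3) and Mrps23 (13.4) highest in the small one. These values fall with the listed length, which is the whole genomic span for 75 of the 76 genes, from 825 bases (Mrpl53) to 121712 bases (Mrps28). Spearman's rho of RPKM with that length was between -0.85 and -0.80 over the 76 genes in the 6 libraries. Per kilobase of annotated exon it was between -0.35 and -0.13. On that scale Mrpl42 led in sham left ventricle with 104 unique reads per exon kilobase and M library reads, followed by Mrpl33 (79.8) and Mrps23 (73.0). Genes with many shared reads need the same care as Mrps6, since 45.8% of the reads of Mrpl51 and 44.9% of those of Mrpl12 were unique in their lowest library, and 18 genes were under 90%.

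Among the features outside the family whose level followed the mean of these 69 genes most closely over the 6 libraries were Uqcrb, Cox7b, Ndufb3 and Creg1, out of 3875 searched. The correlation was 0.9988 for Uqcrb, which had 33.4 RPKM in sham and 24.6 RPKM in CHF left ventricle and 3.58 to 4.41 RPKM in the brain. With 6 libraries and a contrast of heart to brain that many genes share, such values describe likeness and no more. Uqcrb, Cox7b and Ndufb3 are respiratory chain subunits.

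For 24 of the 76 genes another protein-coding gene starts within 500 bases on the opposite strand. In 1 pair both genes are mitochondrial ribosomal, Mrpl46 and Mrps11 on chromosome 7, and their ratios of CHF to sham in the left ventricle were -0.05 and -0.15. Between left ventricle and hippocampus in sham mice they went apart, with 0.50 for Mrpl46 and -0.69 for Mrps11. Mrpl36 and the respiratory chain gene Ndufs6 both had -0.17 in the left ventricle, and 0.13 and 2.17 between left ventricle and hippocampus. Mrps12 had -0.91 there and its neighbour Sars2, the mitochondrial seryl-tRNA synthetase, -0.54. Mrpl51 had 1.96 and its neighbour Ncapd2 had -0.35. Genes with NRF1 letters in the window had a median ratio of left ventricle to hippocampus of 1.02 in sham mice, against 0.39 for those without (12 and 50 measured genes). The ETS core gave 0.51 and 0.53 (21 and 41 genes) and YY1 letters 0.36 and 0.54 (8 and 54 genes). For CHF to sham in the left ventricle the medians with and without were -0.24 and -0.06 for NRF1 (12 and 51 genes), 0.01 and -0.15 for ETS (21 and 42 genes), and -0.20 and -0.08 for YY1 (8 and 55 genes). These medians are descriptions.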

How the data were processed

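RNA of pooled mice was depleted of ribosomal RNA and sequenced with strand kept, and reads were aligned by the authors in CLC Genomics Workbench (version not given in the sources used here) to GRCm38, named p1 in the submitters' processing notes. For each feature the authors deposited whole-number counts of 3 kinds of reads, namely unique to the gene, all in the gene, and in its listed exons. The RPKM values deposited by the authors scale exon reads by listed length and total gene reads, and recomputing them gave all 35485 features to within 1e-06. Reads in introns and reads shared between genes enter RPKM. Whether counting used the strand is not given. The authors' comparison tables repeat these RPKM values and add log2 ratios, and were not used.

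A gene was measured where both libraries of a comparison had a unique read count of 100 or more and RPKM was not 0. It was called with a log2 RPKM ratio of at least 0.9 or at most -0.9. The 95% intervals (Clopper-Pearson, exact) were computed on how the unique reads of a gene divide between 2 libraries and set on the log2 scale with totals of 15.7 to 25.9 M reads. With 1 library per group no p-values were computed. Coordinates of genes come from the files, promoters from RefSeq (GRCm38.p6), and strands, exons and transcripts from GENCODE vM21.

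The members and gene lists were chosen with earlier results of these data known. Named genes are those past the threshold between CHF and sham, the 4 highest and lowest of each subunit in the left ventricle and 2 in each brain region, the 3 with the highest RPKM, the 3 most and least heart-enriched, list extremes, genes of fixed roles and the 5 features most alike, of which 1 is not reported here; others were named after their values were seen.

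Alternatives were TMM (edgeR 4.0.16) and DESeq2 1.42.0 size factors on unique reads, CPM, read minimums of 50 and 200 or 100 in either library, a pseudocount of 0.1 RPKM, thresholds of 0.8 and 1.0, lowess trends (fraction 0.3) on length, abundance and GC taken out, totals without the 10 largest features, and leaving out overlapping or less unique genes. Calls and intervals were also run on simulated counts that hold counting error alone, as the intervals assume. Such a run cannot show how they would behave with the spread between mice. Python 3.11.15 with pandas 2.3.3, scipy 1.17.1, statsmodels 0.14.6 and R 4.3.3 were used.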

Additional observations from a re-analysis of the deposited data

Results flagged for a closer look

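For 6 genes the intervals of the ratio of CHF to sham lay on opposite sides of 0 in a pair of tissues. The share of all features that meet this rule was not computed, so the count cannot be read as a trait of the family. Over all features the interval lay below 0 for 17.5% in the left ventricle and above 0 for 22.5% in the hippocampus. In the prefrontal cortex it lay above 0 for 12.3% and below 0 for 15.8%. The difference between tissues was not tested, because each tissue has 1 pool for each condition. Mrpl3 had -0.44 in the left ventricle and 0.21 in the hippocampus. Mrpl37 had -0.32 in the left ventricle and 0.13 in the hippocampus. Mrpl45, which anchors the ribosome to the inner membrane, had -0.34 in the left ventricle and 0.15 in the prefrontal cortex. Mrpl51 had -0.26 in the left ventricle and 0.23 in the prefrontal cortex, with 45.8% of its reads unique in its lowest library. Between the brain regions, Mrps24 had 0.28 (hippocampus) and -0.37 (prefrontal cortex). Mrps5 had 0.37 (hippocampus) and -0.21 (prefrontal cortex).

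The rows without a listed length, which entered no comparison, held reads. The highest number of unique gene reads in a library was 355 for Mrpl23-ps1, 318 for Mrpl48-ps, 109 for Mrps36-ps1 and 4 for Mrps36-ps2. Between 0 and 51.2% of the reads of these pseudogene rows were unique.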

How the results depend on the processing

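The median ratio of CHF to sham of the mitochondrial ribosomal protein genes in the left ventricle kept its sign under every alternative run and under 6 of them lay farther from 0 by more than 0.18, the median half-width of the counting intervals. It was -0.08 as reported, -0.30 with TMM, -0.31 with DESeq2 size factors, -0.27 with totals without the 10 largest features, and -0.31, -0.37 and -0.30 with the trend on length, abundance and GC taken out. It was -0.14 without the genes that overlap another feature and -0.12 without those under 90% unique. In the scaling and trend alternatives the median of all features moved as well, and the distance between them stayed between -0.38 and -0.27 under all alternatives. The number of called genes in the left ventricle was 0, and 1 with a read minimum of 50 (Mrpl52), with 100 reads in either library (Mrpl52) and with a threshold of 0.8 (Mrps6). Over all 9771 features 1027 were higher and 150 lower in the left ventricle as reported, and 709 and 301 with TMM. A threshold of 0.8 gave 1275 higher and 199 lower of 9771. A read minimum of 50 gave 1469 higher and 187 lower of 11021, and 100 reads in either library gave 1882 and 191 of 11193. TMM moved the median of all features by 0.16 between left ventricle and hippocampus and by 0.19 between left ventricle and prefrontal cortex in sham mice. In both brain regions the medians moved by less than the half-width of their own intervals and the count of called genes stayed within 1.5 times. The same held between tissues, where only TMM, CPM, the read minimum of 200, the pseudocount and leaving out overlapping genes were run, although genes called lower in sham left ventricle went with TMM from 2 to 0 against the hippocampus and from 3 to 0 against the prefrontal cortex. Over all features those called lower went from 2619 to 2246 and from 2625 to 2216 in the same comparisons. No paired analysis was possible because each comparison sets 1 library against 1 library. An effect of CHF common to the 3 tissues was not fitted. Depth limits genes near 100 reads most, where the interval of a ratio such as that of Mrps33 spans -0.96 to -0.23.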

Other observations

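Across the 72 genes measured in both brain regions, the ratio of CHF to sham in the hippocampus and that in the prefrontal cortex had a Pearson's r of -0.43 and a Spearman's rho of -0.40, against -0.06 over 10554 features. The libraries are separate, but whether they hold RNA of the same mice is not stated. The points are genes and not replicates, and most of their intervals include 0. Between the left ventricle and the hippocampus r was 0.06 over 71 genes.

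Of 8 measured regulators of mitochondrial genes, 6 had a ratio of sham left ventricle to hippocampus above 0, with a median of 0.73. Of the 8, 4 were called higher and 1 lower, against 26.0% and 30.1% of all features, whose median was -0.17. Ppargc1a was higher in sham left ventricle than in the hippocampus by 2.87 on the log2 scale, and Pprc1, a related coactivator, was lower with -1.11. Lrpprc, which stabilises mitochondrial mRNA, had 3.15, and Ptcd3, a pentatricopeptide protein of the small subunit, had 3.29. Ptcd3 is 1 of the 7 mitoribosomal proteins under other names. Of these, 2 had both heart libraries above all brain libraries and 4 had both below. Dhx30, an assembly factor, had -1.78.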
